A study of Mus musculus with 24 samples.

Results

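The genes described here encode the proteins of the mitochondrial ribosome that carry the symbols Mrpl or Mrps with a number, pseudogenes left out. The rule found 77 such genes, 48 with an Mrpl and 29 with an Mrps symbol, among 23917 gene symbols listed in the deposited tables. They were followed in mouse E14 embryonic stem cells, an established pluripotent line, in 3 treatment groups. One group was transfected with oligonucleotides that contain locked nucleic acid (LNA) and are antisense to tRF-GG, a fragment of glycine tRNAs, and is called the inhibitor group. A second group received an esiRNA, an enzymatically prepared pool of small interfering RNAs, against GFP as the control transfection, and the remaining group was mock-transfected. Each group had 4 libraries of total RNA and 4 libraries of ribosome footprints, which makes 24 libraries. Footprints were RNAs of 26 to 32 nucleotides taken from the 80S ribosomes of nuclease-treated lysate. The labels do not say whether replicates came from separate cultures, so the p-values measure only the spread between these libraries, which may be technical. The labels do not say either whether the RNA and footprint libraries that share a number came from 1 culture.

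Mitochondrial ribosomes make the proteins encoded in mitochondrial DNA, which are core subunits of the respiratory chain and ATP synthase. The RNAs of this ribosome come from mitochondrial DNA, whereas its proteins are encoded in the nucleus, made on cytosolic ribosomes and imported. A footprint on an Mrpl or Mrps transcript is therefore a cytosolic ribosome making a part of the mitochondrial one. Some of these proteins descend from bacterial ribosomal proteins and others are found only in mitochondrial ribosomes.

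By textbook assignment, 50 of the 77 genes encode proteins of the large subunit and 26 proteins of the small subunit. Mrps18a and Mrps30 are among the 50, since their proteins sit in the large subunit despite the symbol. Mrps36 was assigned to neither, because its protein has also been described as a part of the oxoglutarate dehydrogenase complex. In the large subunit 30 genes have a bacterial relative and 20 are specific to mitochondria. In the small subunit 17 have a bacterial relative and 9 are specific to mitochondria. The genes lie on 17 chromosomes, with 10 on chromosome 11, 8 on chromosome 17 and 7 on chromosome 6. In the RefSeq annotation of GRCm38.p6, 25 of them overlap another gene, and 20 overlap a gene that is listed in the tables. The sources used here do not say whether reads were assigned by strand, so values of overlapping genes are uncertain where the 2 transcripts share bases. In that annotation 6 pseudogenes are named after 4 of the genes (Mrpl23, Mrpl27, Mrpl48 and Mrps36), and reads shared with such copies are divided by an estimate.

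The files hold FPKM (fragments per kilobase of transcript, relative to the total of a library), and levels are given here as scaled FPKM after libraries were put on one scale. Read depth in counts is unknown. Relative depth was only estimated, from the most common ratio between libraries in the FPKM of sparsely detected genes. By this estimate, depth relative to the deepest library ran from 7.20% to 100% in RNA and from 20.6% to 100% in footprints. It could not be checked against counts. The ribosomal RNA precursor Rn45s took between 1.68% and 62.7% of all FPKM in RNA libraries, with the highest share in inhibitor RNA library 1. It took between 18.5% and 44.2% in footprint libraries. All 12 stem cell markers, among them Pou5f1 and Nanog, passed the filter, with a summed level of 2644 to 3859 scaled FPKM in RNA. Of 10 fibroblast feeder markers, 2 passed it in RNA (Fn1 and Thy1), and Lum and Dcn were at 0 in every library. The feeder list summed to 51.8 to 125 scaled FPKM in inhibitor RNA libraries, 72.5 to 167 in GFP and 75.1 to 164 in mock libraries. Its footprints summed to 39.5 to 89.7, 50.5 to 132 and 51.0 to 136 scaled FPKM. The 2 tested feeder markers had mean control levels of 120 and 3.95 scaled FPKM in RNA, so the sum mostly followed the higher. They went in opposite directions. The log2 difference, inhibitor minus GFP, was -0.45 for Fn1 and 0.92 for Thy1 in RNA, and -0.32 and 0.76 in footprints. Against mock these were -0.59 and 0.80 in RNA and -0.42 and 0.68 in footprints. Of 8 trophoblast markers 6 passed the filter. Their list summed to 19.99 to 65.5 scaled FPKM in inhibitor RNA libraries, 11.6 to 56.9 in GFP and 11.9 to 47.0 in mock libraries. Their footprints summed to 17.2 to 61.1, 7.78 to 33.0 and 6.17 to 32.5 scaled FPKM, with Elf5 at 0 in every footprint library. The 6 tested markers had a median log2 difference, inhibitor minus GFP, of 0.30 in RNA, with 6 of 6 above 0, and of 0.49 in footprints, with 5 of 6 above 0. Against mock the medians were 0.55 and 0.64, with 6 and 5 above 0. Of 8 primitive endoderm markers, 8 passed the filter in RNA and 7 in footprints. Their median difference from GFP was 0.14 in each assay, with 7 of 8 and 6 of 7 above 0. Against mock it was 0.05 (5 of 8) and 0.02 (4 of 7). Stem cell markers had medians of -0.15 in RNA (4 of 12 above 0) and -0.12 in footprints (3 of 12) against GFP. Against mock they were -0.03 (6 of 12) and -0.12 (4 of 12). No marker of these lists passed an adjusted p of 0.05 in limma, and their part in the results below was not tested.

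All 77 genes were expressed. Each passed the filter on low values (a mean of at least 0.5 scaled FPKM) in RNA and in footprints, and none was at 0 in any library. Over the 8 GFP and mock libraries their RNA levels ranged from 2.73 to 55.7 scaled FPKM with a median of 22 scaled FPKM, which lay at the 79.9th percentile of the 12560 genes tested. Footprint levels ranged from 1.61 to 82.8 scaled FPKM with a median of 17.5, at the 82.7th percentile of 10669 genes. The middle of the set was narrow beside that of all genes tested, with quartiles of 15.3 and 28.0 scaled FPKM in RNA and 11.9 and 27.5 in footprints. Genes with a bacterial relative had a median RNA level of 25.7 scaled FPKM and those specific to mitochondria one of 19.5. The large and small subunits had medians of 23.2 and 21.2 scaled FPKM. By comparison, 81 genes of the cytosolic ribosome had a median RNA level of 626 scaled FPKM. For 78 nuclear genes of the respiratory chain, a list that here includes ATP synthase, it was 64.7. The 24 assembly factors of the mitochondrial ribosome stood lower than the ribosomal proteins, with a median of 9.82 scaled FPKM. The ratio of upper to lower quartile was 1.83 in RNA and 2.31 in footprints for the 77 genes, beside 7.14 and 7.48 for all genes. It was 2.10 and 1.95 for cytosolic ribosomal proteins, 2.16 and 2.42 for assembly factors and 3.09 and 3.78 for respiratory chain genes.

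The highest RNA levels belonged to Mrpl52, which is specific to mitochondria, at 55.7 ± 15.1 scaled FPKM (SD, n = 8), to Mrpl18, a relative of the bacterial protein L18 of the central protuberance, at 54.8 ± 11.2, to Mrpl20 at 52.7, and to Mrps18b at 51.3 ± 10.2. These 4 levels differed by less than their SD over libraries. The lowest level was that of Mrpl19, a relative of L19 at the subunit interface, at 2.73 ± 0.462 scaled FPKM in RNA and 1.61 ± 0.259 in footprints. Mrpl41 (4.53), Mrpl35 (4.57) and Mrps25 (5.91) followed in RNA. No control library of Mrpl19 exceeded 3.29 scaled FPKM in RNA, and no control library of Mrpl52 was under 26.1, so the 2 ends of the order did not overlap. Mrpl52 also led the footprints at 82.8 ± 18 scaled FPKM, followed by Mrpl20 at 49.1, Mrps18b at 48.3 and Mrps16 at 45.7. The lowest footprint levels after Mrpl19 were those of Mrps25 (3.10), Mrpl35 (3.51) and Mrpl41 (5.47). Across the 77 genes, RNA and footprint levels had a Spearman rho of 0.77, against 0.88 across the 10497 genes tested in both assays. The points share libraries and depth. The 77 genes also spanned a narrower range, with a ratio of upper to lower quartile in RNA of 1.83, beside 7.14 for all genes tested. The part of this range in the lower rho was not tested.

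**Figure D1:**
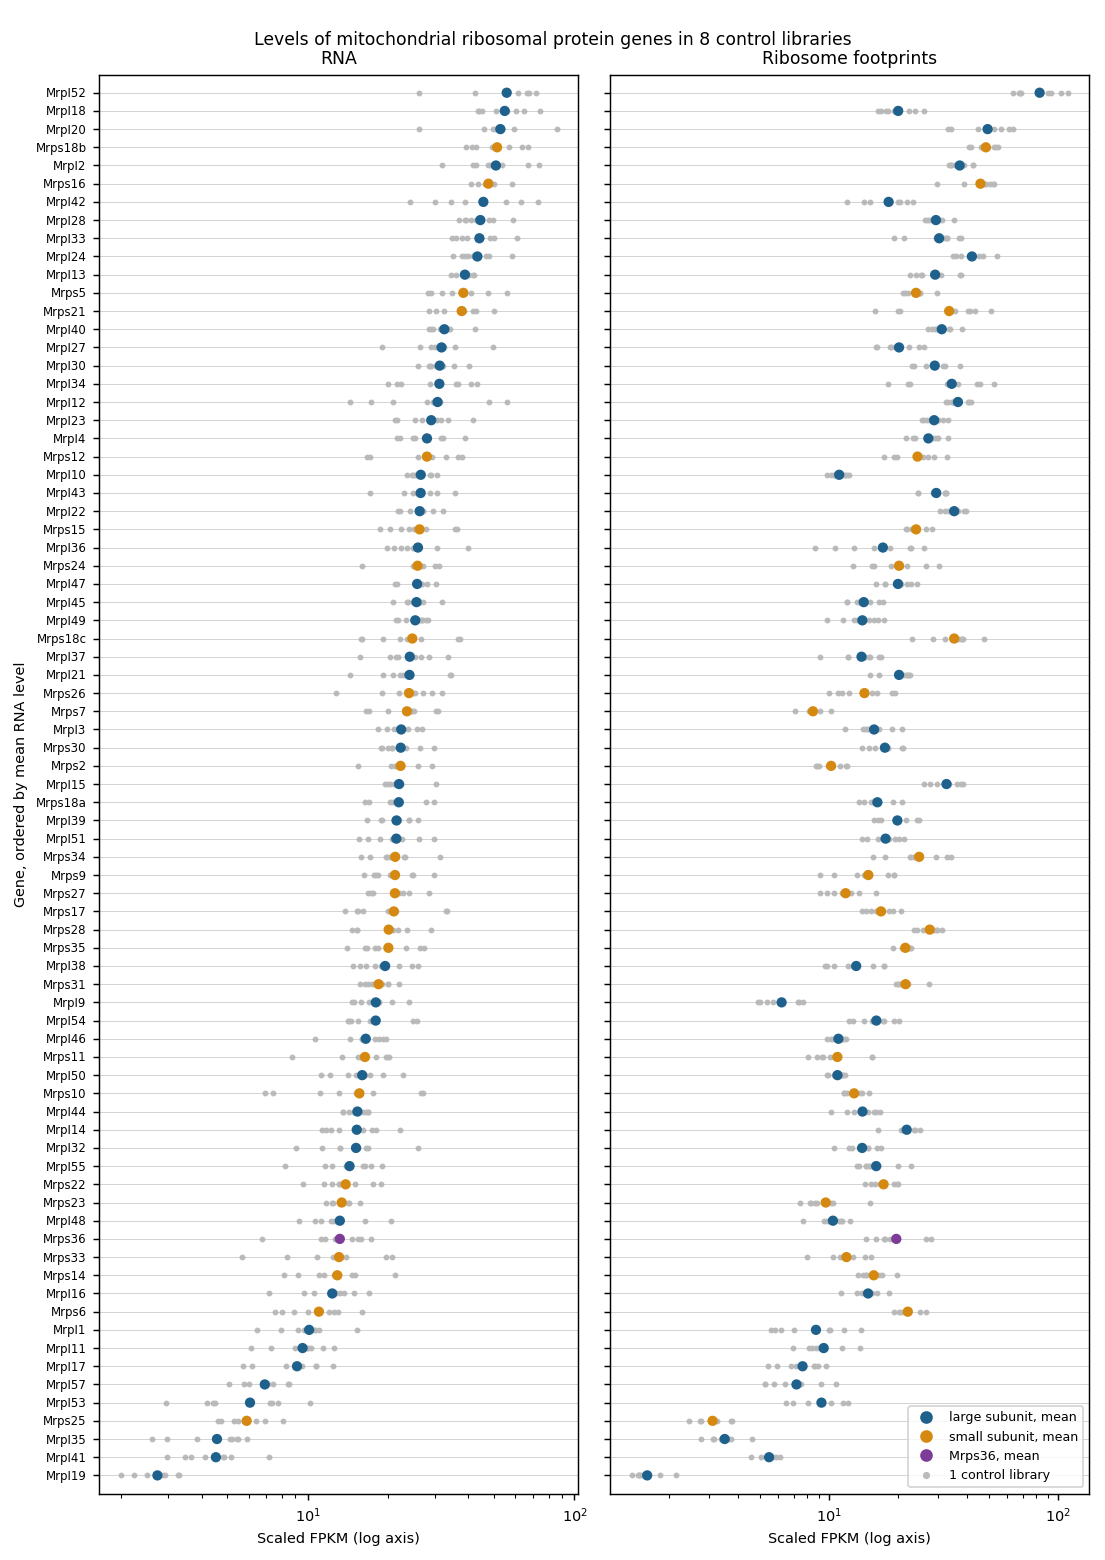
RNA (left) and footprint (right) levels in scaled FPKM on log axes for each of the 77 genes, with the 8 GFP and mock libraries as small grey points and their mean as a large point coloured by subunit. The quartiles are 15.3 and 28.0 scaled FPKM in RNA, with Mrpl52 at the top of both assays and Mrpl19 at the bottom.

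The 3 relatives of the bacterial protein S18 illustrate how members of one family differed. Mrps18b and Mrps18c are proteins of the small subunit and Mrps18a is a protein of the large one. Mrps18b RNA ranged from 39.3 to 66.7 scaled FPKM over the 8 control libraries, Mrps18a RNA from 16.3 to 29.8 and Mrps18c RNA from 15.8 to 37.3. The range of Mrps18b lay above those of Mrps18a and Mrps18c, which overlapped each other. In footprints Mrps18c, at 23.1 to 47.2 scaled FPKM, lay above Mrps18a, at 13.5 to 20.8, with no overlap, and Mrps18b stood at 40.7 to 54.5. The Mrps18a gene overlaps Rsph9 by 6871 bp.

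Relative to their RNA, most of these genes carried more footprints than the typical gene. The footprint to RNA ratio is given on the log2(scaled FPKM + 1) scale, less the median of all 10497 genes, so that 0 is the typical gene. The 2 assays were scaled separately, so only the order of genes can be read from it. The 77 genes had a median ratio of 0.61, at the 82.4th percentile of all genes, with a range of -0.59 to 1.78. Ratios of single libraries join the RNA and footprint library of a group that share a number. The labels do not say whether these share a culture. In single control libraries joined in this way the median ran from 0.51 to 0.87, and between 62 and 69 of the 77 genes were above 0. In the 4 inhibitor libraries it ran from 0.53 to 0.68. The median was 0.60 for the large and 0.66 for the small subunit. It was 0.60 for genes with a bacterial relative and 0.67 for those specific to mitochondria. Cytosolic ribosomal proteins had a median of 0.63 and respiratory chain genes one of 0.97, while assembly factors stood at -0.13 and mitochondrial translation factors at 0.09. The size of the members' median depended on the reference and the pseudocount, from 0.28 with no filter on low genes to 0.79 with a pseudocount of 0.1. FPKM divide by the whole transcript, untranslated parts included, and the share of each transcript that codes for protein was not used here, so its part in this ratio was not tested.

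The highest ratio was that of Mrps6, whose bacterial relative S6 pairs with S18, at 1.78, with 1.43 to 2.43 over the 8 same-numbered control pairs. RNA of Mrps6 was 11.0 ± 2.88 scaled FPKM and its footprints were 22.1 ± 2.49. Its gene overlaps Slc5a3 by 29138 bp. Mrpl52 (1.41), Mrpl53 (1.40), Mrps36 (1.36) and Mrpl15 (1.36) came next. At the other end, Mrpl9, a relative of L9, had 18 ± 3.15 scaled FPKM in RNA and 6.21 ± 1.13 in footprints, a ratio of -0.59. Mrpl18 had the same ratio, with 54.8 scaled FPKM in RNA and 20.02 ± 3.55 in footprints, and its gene overlaps Tcp1 by 1459 bp. Mrps7, a protein of the small subunit head, stood at -0.53, Mrpl42 at -0.41 and Mrpl10, which anchors the stalk of the large subunit, at -0.38. Mrpl18, Mrpl9, Mrps7 and Mrpl10 were below 0 in all 8 same-numbered control pairs of RNA and footprint libraries, and Mrps6 was above 0 in all 8.

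**Figure D2:**
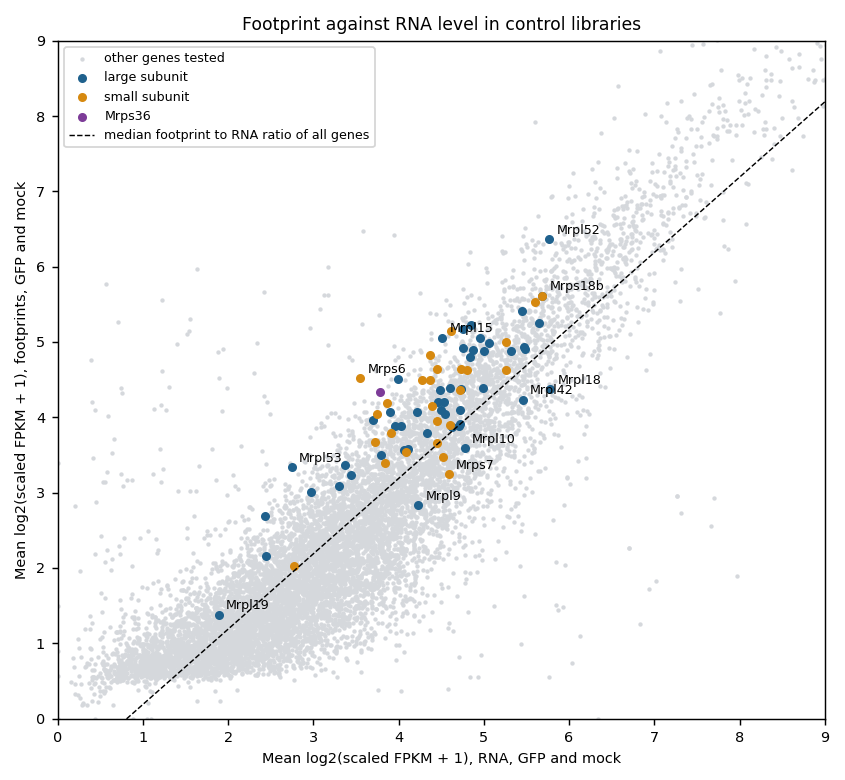
Mean log2(scaled FPKM + 1) of each gene in RNA (horizontal) and footprints (vertical) over the GFP and mock libraries, with the 77 genes coloured by subunit over the other genes tested in grey. Most members lie above the dashed line of the median ratio, with Mrps6 and Mrpl52 far above it and Mrpl9, Mrpl18, Mrps7 and Mrpl10 below; genes past the upper ends of the axes are not drawn.

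The comparison of the inhibitor with the GFP control asks whether the inhibitor transfection went with a difference in these genes. These groups also differ in the kind of oligonucleotide, LNA or esiRNA, and no group received a control LNA. Blocking of tRF-GG therefore cannot be told apart from other effects of the LNA. None of the 77 genes passed an adjusted p of 0.05 in RNA, where 0.0159% of all genes tested did (2 of 12560), or in footprints, where 0.00937% did (1 of 10669), in limma with Benjamini-Hochberg adjustment. The median log2 difference of the 77 genes, inhibitor minus GFP, was 0.03 in RNA beside -0.01 for all genes, with 46 of 77 above 0. In footprints it was 0.01 beside 0.01 for all genes, with 42 above 0. Without 1 library in turn the RNA median ran from -0.00 (without GFP library 1) to 0.07 (without GFP library 3), and the footprint median from -0.05 (without inhibitor library 3) to 0.04 (without inhibitor library 4). The 95% interval lay within 2-fold in either direction for 72 genes in RNA and 75 in footprints, beside 81.4% and 89.2% of all genes tested. With the replicate number as a block, 0 of the 77 genes passed in RNA, where 0.255% of all genes did, and 0 in footprints, where 0.422% did. The block for footprints was fitted over the inhibitor and GFP libraries alone, because the numbers of the mock footprint libraries did not pair with the others. An interval within a log2 difference of 0.5 was reached by 12 genes in RNA and 32 in footprints, beside 10.5% and 32.1% of all genes. Smaller differences of single genes could not be resolved with 4 libraries a group. In bulk samples, fewer cells with a transcript and less of it per cell cannot be told apart.

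At an unadjusted p of 0.05, 3 of the 77 genes passed in RNA (Mrpl16, Mrpl9 and Mrpl3), where 3.11% of all genes did, and 2 in footprints (Mrpl3 and Mrps28), where 3.31% did. In RNA, all 4 inhibitor libraries were above all 4 GFP libraries for Mrpl9 and Mrpl16, a pattern shown by 1.09% of all genes. In footprints, all 4 were below for Mrpl3 and Mrps28, a pattern shown by 0.872% of all genes. With the replicate block 6 genes passed an unadjusted p of 0.05 in RNA, beside 6.86% of all genes, with Mrpl3, Mrpl42 and Mrps31 lower and Mrpl9, Mrpl16 and Mrpl34 higher. In footprints 4 passed with the block, beside 10.6% of all genes, with Mrpl3, Mrps28 and Mrps9 lower and Mrpl43 higher. The lowest limma adjusted p of any member was 0.410 in RNA, with the block fitted over all 3 groups. In footprints it was 0.0817, with the block fitted over inhibitor and GFP alone. The RNA block fitted over inhibitor and GFP alone gave a lowest limma adjusted p of 0.293.

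Mrpl3, on chromosome 9 (GRCm38.p6, chr9:105053268-105077466, plus strand), encodes a relative of L3 near the peptidyl transferase centre. Its footprints stood at 12.1, 11.4, 7.51 and 10.1 scaled FPKM in inhibitor libraries 1 to 4, at 16.6, 20.8, 14.9 and 14.1 in the GFP libraries, and at 18.8, 14.3, 11.7 and 14.6 in the mock libraries. All 4 inhibitor libraries were below every GFP library, while the highest inhibitor library was above the lowest mock library. The footprint difference from GFP was -0.65 (log2, SE 0.19, 95% interval -1.05 to -0.24), with a limma adjusted p of 0.778 over all genes. RNA of Mrpl3 was 17.7, 18.5, 15.3 and 13.3 scaled FPKM in the inhibitor libraries, 18.4, 23.8, 26.9 and 19.9 in the GFP libraries, and 21.6, 22, 25.6 and 21.1 in the mock libraries. Inhibitor and GFP libraries overlapped in RNA only between the highest inhibitor and the lowest GFP library, and the RNA difference was -0.43 (SE 0.17, limma adjusted p = 1). With the replicate number as a block over the inhibitor and GFP libraries, the limma adjusted p of the Mrpl3 footprints was 0.0817. Over the alternatives tried, the footprint difference of Mrpl3 ran from -0.72 to -0.50, with a limma adjusted p from 0.0817 to 1.

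Mrpl16, on chromosome 19 (chr19:11770415-11774956, plus strand), encodes a relative of L16, which also lies close to the peptidyl transferase centre. Its RNA was 19.3, 17.9, 16.1 and 17.2 scaled FPKM in the inhibitor libraries, 10.5, 13.2, 7.17 and 12.7 in the GFP libraries, and 14.9, 9.70, 16.9 and 13.7 in the mock libraries. The inhibitor libraries were above every GFP library, and the highest mock library reached into the inhibitor range. The RNA difference from GFP was 0.68 (log2, SE 0.21, 95% interval 0.22 to 1.13, limma adjusted p = 0.970). The GFP libraries themselves stood 0.32 below mock for this gene. Footprints of Mrpl16 overlapped between inhibitor (14.6 to 21.5 scaled FPKM) and GFP (11.2 to 18.2), with a difference of 0.32.

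Mrpl9, on chromosome 3 (chr3:94443154-94448708, plus strand), had RNA levels of 19.2, 25.3, 19.1 and 24.9 scaled FPKM in the inhibitor libraries and 17.0, 14.6, 14.9 and 18.4 in the GFP libraries. The mock libraries, at 18.5, 15.9, 23.9 and 20.8, overlapped both groups. The RNA difference from GFP was 0.42 (log2, SE 0.18, limma adjusted p = 1), and it was -0.06 on unscaled FPKM, where the median of all genes was -0.39. Footprints of Mrpl9 were 6.55, 6.34, 2.997 and 6.69 scaled FPKM in the inhibitor libraries and 5.37 to 7.69 in the GFP libraries. Inhibitor library 3 was low and the other three lay inside the GFP range.

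Mrps28, on chromosome 3 (chr3:8802146-8923857), encodes a relative of the bacterial protein S1. Its footprints were 23.2, 19.9, 21.3 and 21.4 scaled FPKM in the inhibitor libraries, 23.4, 31.1, 28.8 and 24.3 in the GFP libraries, and 25.6, 29.6, 29.5 and 27.6 in the mock libraries. The inhibitor libraries were below all libraries of both control groups, with library 1 of the inhibitor group just under library 1 of the GFP group. The footprint differences were -0.31 from GFP (log2, SE 0.13) and -0.37 from mock (SE 0.13), with a limma adjusted p of 1 in each. RNA of Mrps28 varied more, from 11.4 to 28.2 scaled FPKM in the inhibitor group and from 14.7 to 29.0 in the GFP group. Both comparisons use the same inhibitor libraries.

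**Figure D3:**
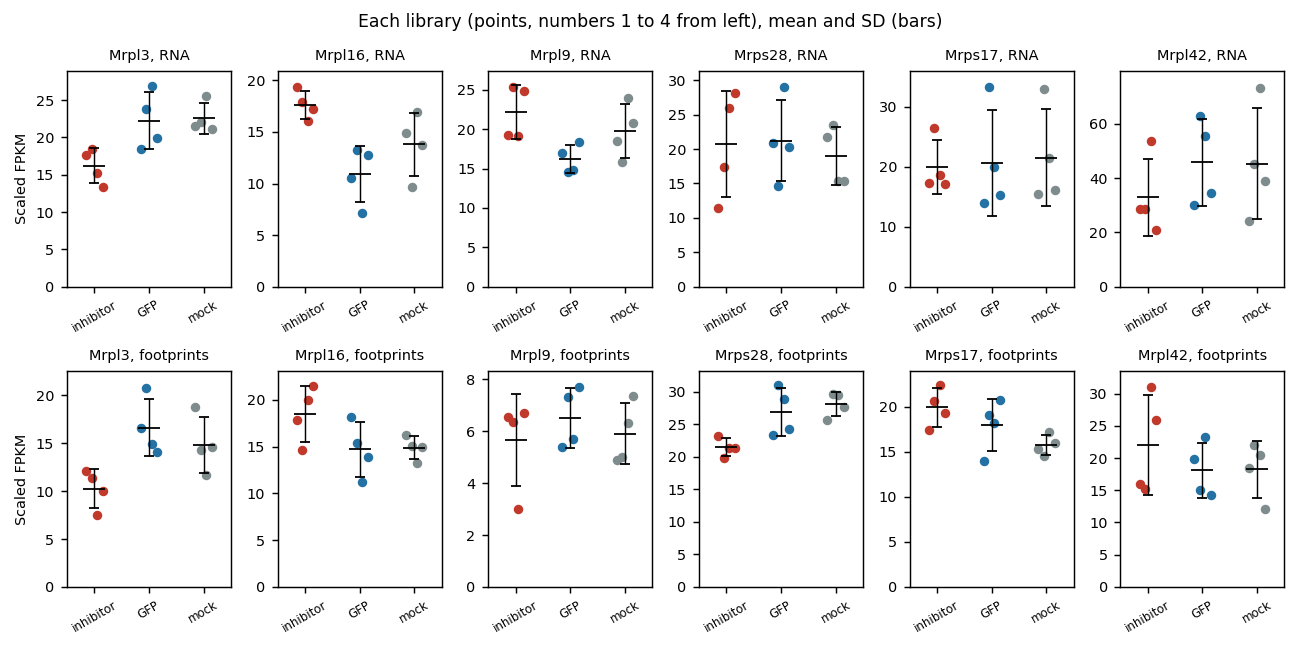
Scaled FPKM of Mrpl3, Mrpl16, Mrpl9, Mrps28, Mrps17 and Mrpl42 in RNA (top) and footprints (bottom), with each library as a point in the order of its number and the mean and SD of 4 libraries as bars. Inhibitor points lie below the GFP points in Mrpl3 and Mrps28 footprints and above them in Mrpl16 and Mrpl9 RNA, and the groups overlap in Mrpl42.

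Other differences from the GFP control at the ends of the order had wide intervals. Mrpl42, which is specific to mitochondria, was lowest in RNA at -0.49 (log2, SE 0.35), with 28.5, 28.7, 53.5 and 20.7 scaled FPKM in the inhibitor libraries and 30.1, 62.9, 55.5 and 34.5 in the GFP libraries. The groups overlapped, and the inhibitor library was lower in each of the 4 same-numbered pairs, with a limma adjusted p of 0.659 with the replicate block. Mrpl14, a relative of L14 on the subunit interface, was at -0.47 (SE 0.33). Its RNA spread from 6.07 to 24 scaled FPKM within the inhibitor group alone. Mrpl53 was among the highest in RNA at 0.47 (SE 0.38), although all of its control libraries were at or under 10.2 scaled FPKM. In footprints Mrps5 and Mrps9, small subunit relatives of S5 and S9, were at -0.37 each, with SE of 0.21 and 0.25. Mrps2, a relative of S2, was at 0.30 and Mrpl41 at 0.23. The limma adjusted p of each of these was 1.

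**Figure D4:**
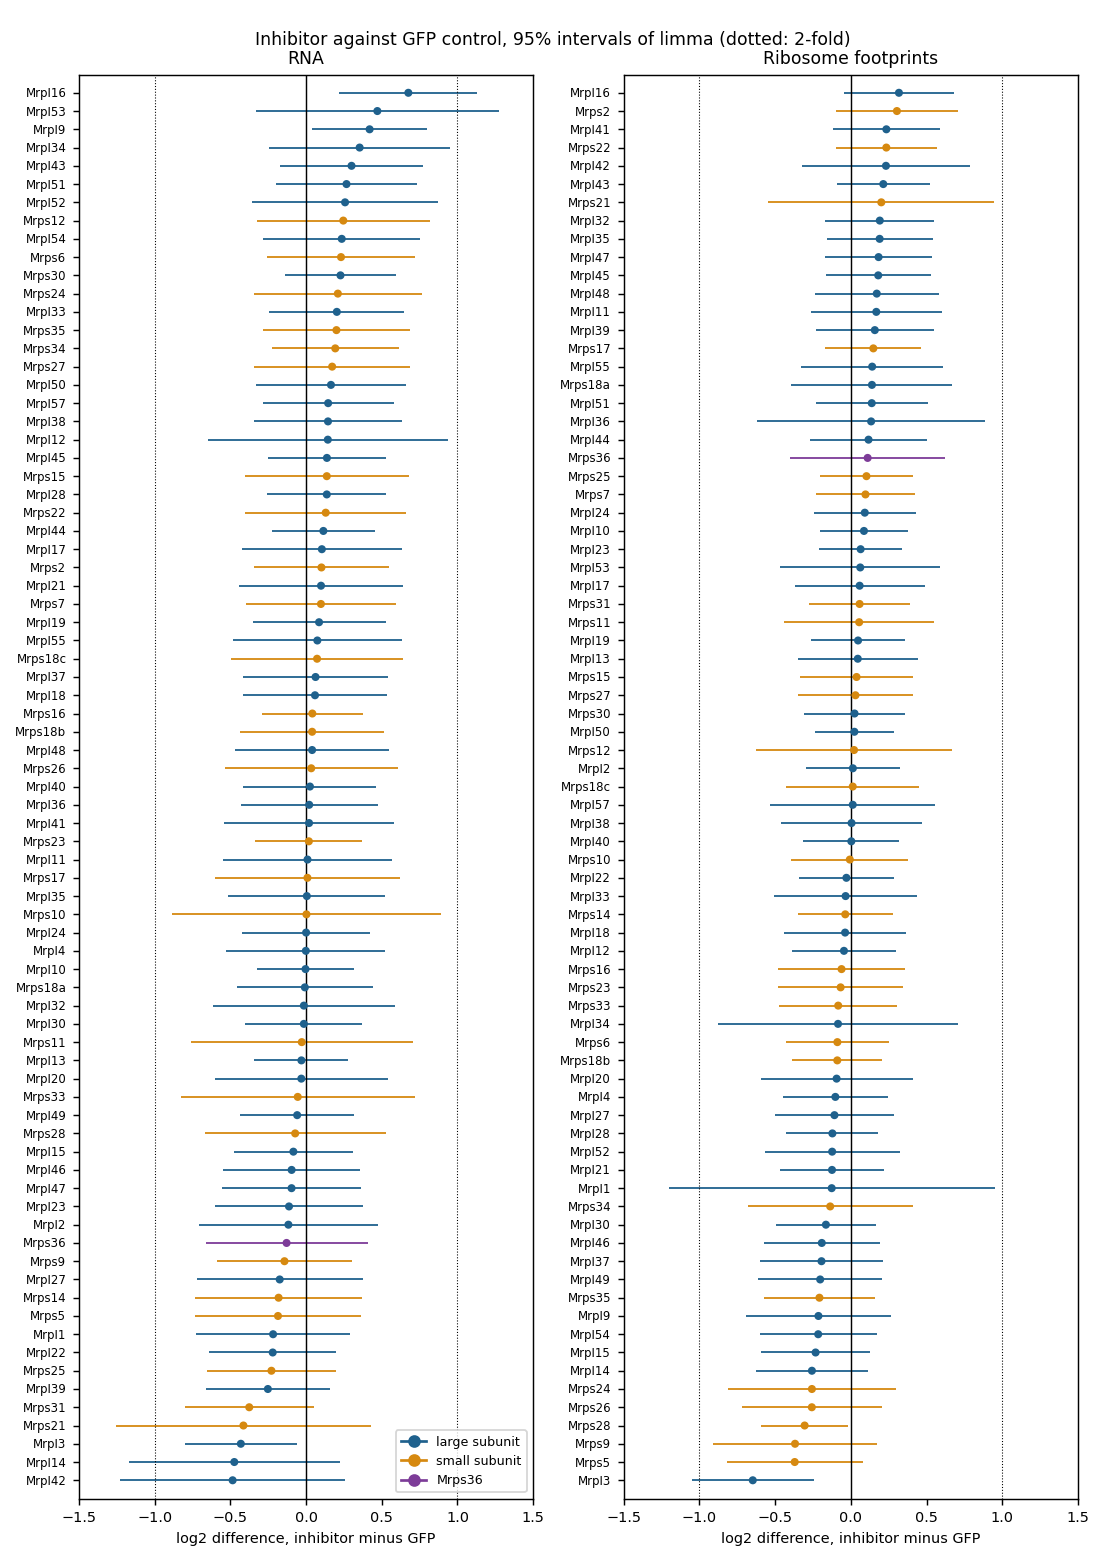
log2 difference between inhibitor and GFP libraries (points) with the 95% interval of limma (lines) for each of the 77 genes in RNA (left) and footprints (right), coloured by subunit, with dotted lines at a 2-fold difference. Mrpl16 is the highest in both, Mrpl42 is the lowest in RNA and Mrpl3 in footprints, and most intervals cross 0 and end inside the dotted lines.

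The promoters of the 3 genes that passed an unadjusted p of 0.05 in RNA are shown because they hold or lack motifs of factors known to act on genes for mitochondrial proteins. The windows run from 250 bases before to 50 bases after the start used by RefSeq (GRCm38.p6), 5′ to 3′ on the gene's strand. They are at chr9:105053018-105053317 for Mrpl3, chr19:11770165-11770464 for Mrpl16 and chr3:94443086-94443385 for Mrpl9, all on the plus strand. The Mrpl9 window uses a start inside the span given above for the gene. Capitals mark the core of the motif of ETS factors such as GABPA (CCGGAAG) in Mrpl3 and the NRF1 motif (GCGCA, then any base, then GCGC) in Mrpl9.
Mrpl3: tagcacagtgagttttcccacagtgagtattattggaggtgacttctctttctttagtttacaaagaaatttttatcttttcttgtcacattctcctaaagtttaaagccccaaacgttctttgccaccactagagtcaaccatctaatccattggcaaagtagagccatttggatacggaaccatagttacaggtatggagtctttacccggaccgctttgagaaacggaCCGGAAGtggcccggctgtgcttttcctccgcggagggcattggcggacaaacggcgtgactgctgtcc
Mrpl16: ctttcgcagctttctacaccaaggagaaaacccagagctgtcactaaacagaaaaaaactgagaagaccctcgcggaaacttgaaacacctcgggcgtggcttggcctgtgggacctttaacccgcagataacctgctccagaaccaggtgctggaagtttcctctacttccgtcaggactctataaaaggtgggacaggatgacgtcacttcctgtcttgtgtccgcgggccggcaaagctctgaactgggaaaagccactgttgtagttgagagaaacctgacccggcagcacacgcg
Mrpl9: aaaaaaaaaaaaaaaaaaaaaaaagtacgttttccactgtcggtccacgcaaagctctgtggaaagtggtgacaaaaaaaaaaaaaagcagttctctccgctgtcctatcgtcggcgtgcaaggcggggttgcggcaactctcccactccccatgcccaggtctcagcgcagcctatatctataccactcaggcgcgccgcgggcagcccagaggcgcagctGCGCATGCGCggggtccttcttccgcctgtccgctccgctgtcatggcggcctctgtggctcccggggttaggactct
The ETS core of Mrpl3 begins 19 bases before the start, and the NRF1 motif of Mrpl9 begins 28 bases before it. The Mrpl16 window holds neither of them, nor the YY1 motif AAGATGGCG, as searched here.

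A window was found for 68 of the 77 genes. Mrpl4, Mrpl13, Mrpl15, Mrpl19, Mrpl38, Mrpl54, Mrps28, Mrps34 and Mrps35 were not matched. On either strand the ETS core was present in 24 of 68 windows (35.3%), beside 19.0% of the 9247 RNA-tested genes with a window and 9.12% of all 27025 windows. The NRF1 motif was present in 9 (13.2%), beside 6.88% and 3.01%. The YY1 motif was present in 8 (11.8%), beside 3.40% and 1.49%. At least 1 of the 3 was present in 36 (52.9%), beside 27.0% and 12.7%. Of the 28 ETS matches, 23 began between 60 bases before the start and the end of the window, as did 8 of 11 NRF1 matches and 7 of 8 YY1 matches. Of all 47 matches, 1 overlapped another match. These matches are letters in a window and were not measured as bound sites.

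Many of these genes also share their start region with a neighbour. The start of a gene on the other strand, pointing away, lay within 1000 bp for 26 of 68 genes (38.2%), beside 19.7% of the 9247 tested genes. Mrpl46 and Mrps11, of the large and the small subunit, start 42 bp apart on chromosome 7. Mrpl47 starts 308 bp from Ndufb5, a subunit of respiratory complex I, and Mrps12, a protein of the decoding centre, starts 147 bp from Sars2, the mitochondrial seryl-tRNA synthetase. Mrpl49 starts 192 bp from Fau, which encodes the cytosolic ribosomal protein S30.

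Against the mock libraries, which were compared with the same inhibitor libraries as above, no member passed an adjusted p of 0.05 in limma. In RNA 0.0239% of all genes did (3 of 12560) and in footprints 0% did. With the replicate number as a block, 0 of the 77 genes passed in RNA, where 0.271% of all genes did, and 6 passed an unadjusted p of 0.05, beside 8.42% of all genes. These were Mrpl3 and Mrps31, which were lower, and Mrpl33, Mrpl34, Mrpl57 and Mrps35, which were higher. Without the block, at an unadjusted p of 0.05, 1 member passed in RNA (Mrpl3, where 3.66% of all genes did) and 4 in footprints (Mrpl3, Mrpl54, Mrps28 and Mrps17, where 3.59% did). The median log2 difference of the 77 genes, inhibitor minus mock, was 0.03 in RNA, with 45 above 0, and 0.04 in footprints, with 48 above 0, beside -0.01 and 0.00 for all genes. Without 1 library in turn the RNA median ran from -0.02 (without mock library 1) to 0.10 (without inhibitor library 1), and the footprint median from -0.01 (without inhibitor library 3) to 0.08 (without inhibitor library 4). The sign of neither median was the same in all of these. Mrpl3 was the lowest in both, at -0.46 in RNA (SE 0.17) and -0.49 in footprints (SE 0.19). Its 4 inhibitor RNA libraries lay below all 4 mock libraries, a pattern shown by 1.22% of all genes.

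Mrpl54, which is specific to mitochondria, was at -0.43 in footprints (SE 0.18), with 11.3, 13.8, 15.1 and 10.2 scaled FPKM in the inhibitor libraries and 17.4, 20.2, 19.2 and 12.7 in the mock libraries. Mock library 4 was lower than 2 of the inhibitor libraries. Mrps17, a relative of S17, was at 0.32 (SE 0.15), with footprints of 17.4, 20.6, 22.4 and 19.3 scaled FPKM in the inhibitor libraries and 15.2, 14.6, 17.2 and 15.9 in the mock libraries, which did not overlap. This pattern was shown by 0.947% of all genes, and the reverse one, held by Mrps28, by 1.07%. The GFP libraries of Mrps17, at 13.9 to 20.7 scaled FPKM, overlapped both groups. Mrps2 (0.38) and Mrpl11 (0.37), the latter at the base of the stalk, were the highest in footprints. In RNA the highest were Mrpl57 (0.41), Mrpl34 (0.39) and Mrpl33 (0.39), and Mrpl42 (-0.43) and Mrps31 (-0.42) were the lowest after Mrpl3. The limma adjusted p of each of these genes was 1.

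Between the 2 control groups, GFP and mock, no member passed an adjusted or an unadjusted p of 0.05 in limma, in RNA, footprints or efficiency. Of all genes, 0% in RNA and 0.00937% in footprints passed the adjusted threshold, and 0.525% and 0.459% the unadjusted one, which 0.372% passed in efficiency. The differences of the 77 genes, GFP minus mock, ran from -0.32 (Mrpl16) to 0.26 (Mrpl57) in RNA and from -0.21 (Mrpl54) to 0.34 (Mrps24) in footprints. Their medians were -0.01 and 0.04. Intervals lay within 2-fold for 76 of 77 genes in each assay, beside 85.5% of all genes tested in RNA and 92.6% in footprints.

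Translational efficiency is the footprint value relative to the RNA value of a gene, tested as the interaction of assay and group in 1 limma model over 24 libraries. No member passed an adjusted p of 0.05 for inhibitor against GFP or against mock, and neither did any of the 10497 genes tested (0% in each). At an unadjusted p of 0.05 the count was 1 of 77 against GFP (Mrpl9), beside 0.714% of all genes, and 1 against mock (Mrpl39), beside 0.915%. The median difference from GFP was -0.06 beside 0.03 for all genes, with 31 of 77 above 0. It ran from -0.09 (without GFP library 4) to -0.02 (without inhibitor library 4) when 1 library number was left out of a group in both assays, and was -0.12 without the libraries numbered 1. With the replicate block over inhibitor and GFP, 0 of all genes passed an adjusted p of 0.05 and 3 members an unadjusted one (Mrpl9 lower, Mrpl42 and Mrps31 higher), beside 3.1% of all genes. From mock it was 0.01 beside 0.01 for all genes, with 40 above 0. Mrpl9 was at -0.63 against GFP (log2, SE 0.28, limma adjusted p = 1), with the RNA and footprint levels given above. Mrpl42 was the highest in both comparisons, at 0.72 and 0.66 (SE 0.45), and Mrpl39 was at 0.55 against mock (SE 0.26). Mrps21, a relative of S21, was at 0.62 against GFP (SE 0.56). Its RNA was 9.26 scaled FPKM in inhibitor library 1 and 31.3 to 50.3 in the other inhibitor libraries. Without that library's number in the inhibitor group, the efficiency difference of Mrps21 was -0.01. Intervals were wider here, and lay within 2-fold for 64 genes against GFP and 57 against mock, beside 65.8% and 66% of all genes tested.

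The members were also described by class for inhibitor against GFP, where the median of all genes was -0.01 in RNA and 0.01 in footprints. In RNA the large subunit had a median of 0.02, with 29 of 50 genes above 0, and the small subunit one of 0.04, with 17 of 26. In footprints the medians were 0.02 (29 of 50) and -0.02 (12 of 26). Genes specific to mitochondria had a median RNA difference of 0.11, with 22 of 29 above 0. Without 1 library in turn it ran from 0.04 to 0.15, and it was 0.04 without GFP library 2, 0.06 without inhibitor library 4 and 0.07 without inhibitor library 3. Those with a bacterial relative had a median of 0.00, with 24 of 47. In footprints these classes stood at 0.02 (19 of 29) and -0.03 (22 of 47). No gene of any class passed an adjusted p of 0.05 in limma.

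The median deviation of the 77 genes from their means over 12 libraries varied more within groups than between group means. In RNA it was 0.03 ± 0.15 in the inhibitor, -0.02 ± 0.07 in the GFP and -0.01 ± 0.11 in the mock group (SD, n = 4), and in footprints 0.04 ± 0.08, 0.02 ± 0.09 and -0.02 ± 0.07. It was highest in library 3 of each of the 6 groups, at 0.16, 0.07 and 0.12 in inhibitor, GFP and mock RNA and at 0.15, 0.14 and 0.08 in footprints. The all-gene median in those libraries was below 0, from -0.12 to -0.03. Inhibitor RNA library 1, with the highest Rn45s share, had the lowest median of all, at -0.19. That library, GFP RNA library 1 and mock RNA library 1 had Rn45s shares of 62.7%, 18.1% and 39.1% and member medians of -0.19, -0.09 and -0.13. The part of Rn45s in these medians was not tested. Without the libraries numbered 1, the median difference from GFP was 0.10 in RNA with 54 of 77 genes above 0, and it was -0.00 in footprints with 38 above 0. The 77 genes together held 0.335% to 0.596% of the FPKM other than Rn45s in RNA libraries and 0.589% to 0.662% in footprint libraries. In RNA this share was 0.487% ± 0.109 in the inhibitor, 0.499% ± 0.0496 in the GFP and 0.472% ± 0.0534 in the mock group (SD, n = 4), so that the groups differed by less than the spread between libraries. In footprints it was 0.625% ± 0.0319, 0.638% ± 0.0188 and 0.622% ± 0.0170.

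**Figure D5:**
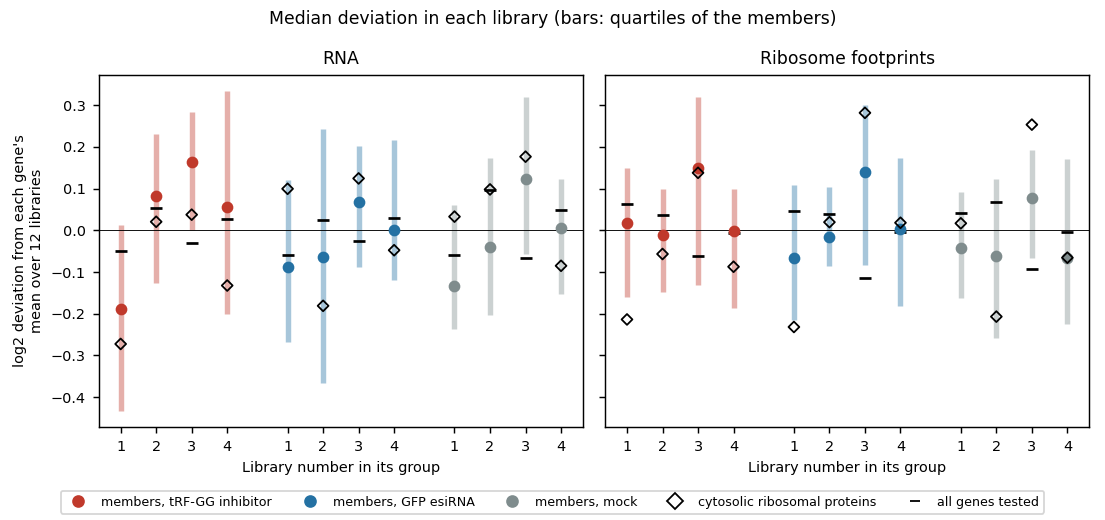
Median log2 deviation of the 77 genes in each library from each gene's mean over the 12 libraries of an assay (coloured points, bars are quartiles), with cytosolic ribosomal proteins as diamonds and all genes tested as dashes. Library 3 has the highest member median in every group, up to 0.16, and inhibitor RNA library 1 the lowest, at -0.19.

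Other genes that serve the mitochondrial ribosome were described in the same fit, and none passed an adjusted p of 0.05 in limma for inhibitor against GFP in RNA, footprints or efficiency. The 6 subunits without an Mrp symbol had median differences of -0.09 in RNA and -0.14 in footprints, between -0.41 (Ptcd3) and 0.11 (Chchd1) in RNA. The 24 assembly factors stood at 0.05 in RNA and 0.05 in footprints, with 14 above 0 in each, and Mtg2, a GTPase of large subunit assembly, was the highest at 0.49 and 0.28. The 15 mitochondrial translation factors had medians of -0.03 and 0.00, and the 20 genes of mitochondrial transcription and RNA stability 0.01 and 0.05. Genes of protein import and membrane insertion, 17 in number, stood at -0.04 and -0.07. The nuclear regulators, which include Nrf1 and Gabpb1, had medians of -0.00 over 12 genes in RNA and -0.06 over 11 in footprints, where Nrf1 was the lowest at -0.55. Nuclear respiratory chain subunits were at -0.08 (31 of 78 above 0) and -0.07 (20 of 79), and cytosolic ribosomal proteins at -0.06 (27 of 81) and -0.06 (20 of 80). Over the alternatives other than unscaled FPKM, the median of cytosolic ribosomal proteins ran from -0.11 to 0.04 in RNA and from -0.16 to 0.03 in footprints, and that of respiratory chain subunits from -0.11 to 0.00 and from -0.13 to 0.00, so that the sign of neither was fixed.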

How the data were processed

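RNA and ribosome footprints of E14 cells were sequenced in 3 treatment groups of 4 libraries per assay. The deposited values are FPKM per gene with 2 decimals, 1 table per assay. The submitters' processing notes list CASAVA 1.8.2 with TopHat, Bowtie2, RSEM and the mm10 build, and the sources used here give no other version. FPKM are relative to each library's total, so much Rn45s lowers all other genes. Counts of reads are not known, so intervals for counting error cannot be given. Identical libraries were looked for and 0 pairs found.

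FPKM were scaled by a median of ratios over the 1717 RNA and 2960 footprint genes that reach 5 FPKM in all libraries. Genes with a mean of at least 0.5 scaled FPKM were tested on log2(scaled FPKM + 1), which understates differences of low genes. limma 3.58.1 in R 4.3.3 was used with a trended robust spread from all 3 groups, two-sided p, Benjamini-Hochberg adjustment over all genes tested and a threshold of 0.05. It was tested on simulated data with independent noise in each library, which leaves out the shared deviations of same-numbered libraries described below. Efficiency was an interaction term. Tables and plots used Python 3.11.15, numpy 2.4.6, pandas 2.3.3 and matplotlib 3.10.9.

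The alternatives were other pseudocounts, scalings, filters, spread estimates and samples. Replicate numbers come from the labels. In RNA, and in footprints of inhibitor and GFP, every same-numbered pair deviated together (r from 0.23 to 0.67). The same number was not always the closest. In RNA, inhibitor library 3 had an r of 0.28 with mock library 4 and of 0.23 with mock library 3. In footprints against mock the numbers did not pair (lowest r -0.13). Blocked footprint fits that hold mock libraries therefore enter only as alternatives tried and in the counts of the closing section.

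The members and lists were chosen with earlier results of these data known. Named members are those past the threshold, the 3 highest and 3 lowest differences (2 and 2 for GFP against mock), the 4 highest and lowest levels, the 5 highest and lowest ratios and the Mrps18 relatives. Members past an unadjusted p of 0.05 or with groups that do not overlap, and neighbours and coordinates given, were named after their values were seen. Promoters are from RefSeq (GRCm38.p6).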

Additional observations from a re-analysis of the deposited data

Results flagged for a closer look

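In 12 of 240 sets of 4 libraries, which cover the named members and the median of all members, 1 library stood apart from the other 3 by a gap that took most of the range of the set (past the 95% critical value of Dixon's test). Chance alone gives about 1 in 20, which is 12. All values are scaled FPKM, and causes were not tested. In the inhibitor group, RNA of Mrps9 was 14.3 in library 1 (others 19.4 to 19.9), RNA of Mrps24 was 17.2 in library 1 (others 37.5 to 37.7), and RNA of Mrps17 was 26.5 in library 2 (others 17.1 to 18.6). Footprints in inhibitor library 3 were 2.997 for Mrpl9 (others 6.34 to 6.69) and 29.1 for Mrps24 (others 15.2 to 15.9). In the GFP group, RNA of Mrpl54 was 24.8 in library 4 (others 14.2 to 15.4) and RNA of Mrpl11 was 7.26 in library 1 (others 9.91 to 10.3). GFP footprints of Mrpl11 were 13.7 in library 3 (others 8.76 to 9.39), and those of Mrpl19 were 2.16 in library 4 (others 1.38 to 1.51). In the mock group, RNA of Mrpl35 was 2.61 in library 1 (others 5.42 to 5.92). Mock footprints of Mrps31 were 27.4 in library 1 (others 20.1 to 21.0), and those of Mrps36 were 26.5 in library 3 (others 17.3 to 18.4).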

How the results depend on the processing

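No member passed the adjusted threshold in any of the 9 comparisons under any of the 20 settings tried for each. With the replicate block fitted over all 3 groups, 32 genes in all passed in RNA and 8 in footprints for inhibitor against GFP. The counts were 34 and 2 against mock, and 0 and 1 for GFP against mock. Fitted over inhibitor and GFP alone, 18 passed in RNA and 45 in footprints. In footprints the numbers of the mock libraries did not pair with the others. Mock library 2 deviated most like library 1 of the GFP (r = 0.72) and inhibitor (0.63) groups and mock library 1 most like library 2 (0.65 and 0.48), while mock libraries 3 and 4 deviated most like their own numbers. Rn45s took 19.1% of FPKM in mock footprint library 2, beside 18.6% and 18.5% in library 1 of the GFP and inhibitor groups. This is a hint from the data, the labels say nothing of it, and the numbers were left as labelled. The block leaves medians as they were (0.03 in RNA for inhibitor against GFP), and it changed no call of a member.

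FPKM as deposited, without scaling, moved the members' median differences to -0.44 in RNA for inhibitor against GFP (all genes -0.39), -0.21 against mock (all genes -0.19) and 0.24 for GFP against mock. For efficiency they were 0.36, 0.22 and -0.16. The cause was not tested. The same setting gave a median RNA level of 25.9 FPKM in controls and turned the RNA difference of Mrpl9 from GFP to -0.063. The members' footprint to RNA ratio was 0.42 with a filter at 5 FPKM, 0.28 with none, 0.79 with a pseudocount of 0.1 and 0.33 with one of 5. Without 1 replicate in turn, the efficiency median against mock ran from -0.061 to 0.041. In the same way Mrps21 efficiency ran from -0.010 to 0.89 against GFP and from -0.13 to 0.78 against mock, Mrpl9 RNA from 0.36 to 0.48, and Mrpl1 footprints, GFP against mock, from -0.32 to 0.045. Without the libraries numbered 1, Mrps21 efficiency against mock was -0.049. The cause was not tested. The other differences of named members kept their sign. No test on counts was run, and unknown depth limits what low genes such as Mrpl19 can show.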
